A study of Mus musculus with 24 samples.

Results

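The genes of the synaptic vesicle and of its release were followed through 2 thalamic nuclei of newborn mice. They were chosen by symbol: synaptotagmins (Syt), synapsins (Syn1 to Syn3), Snap25, Snap47 and Snap91, Vamp and Stx genes, syntaxin binding proteins (Stxbp), complexins (Cplx), every symbol that begins with Rab3, the Sv2, Doc2, Rims, Unc13 and Syngr families, Pclo, Bsn, Syp and Synpr. The rule found 95 genes, measured by 213 probe sets, among 18194 genes in all. The beginning Rab3 also takes in 12 Rab GTPases numbered in the thirties, such as Rab30 and Rab35, which serve other membrane traffic.

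A synaptic vesicle fuses when the SNARE protein of the vesicle (Vamp) zips up with those of the plasma membrane (Stx1a and Snap25). RIM, Munc13 (the Unc13 genes), piccolo (Pclo) and bassoon (Bsn) hold and prime the vesicle at the active zone. Complexins clamp and assist the assembled SNAREs, and some, but not all, synaptotagmins and Doc2 proteins sense calcium. In the thalamus, relay neurons make the transcripts in the nucleus and release transmitter from axon terminals in the cortex, whereas the transcripts that serve incoming retinal or brainstem terminals are made elsewhere.

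The tissue came from wild-type C57BL/6 mice. In the enucleated animals (embBE), both eyes had been removed in utero from part of the embryos of a litter, before retinal axons arrive at the thalamus; control animals kept their eyes. The ventrobasal complex (VB), the somatosensory relay nucleus that the study also names VPM, and the dorsal lateral geniculate nucleus (dLGN), the visual relay nucleus, were microdissected at P4 and at P0. There were 3 arrays in each of VB P4 embBE, VB P4 control, VB P0 embBE, VB P0 control, dLGN P4 embBE and dLGN P4 control, with 4 arrays in dLGN P0 embBE and 2 in dLGN P0 control. Each of the 24 arrays pools tissue of pups of the same litter and condition, and the meaning of the number pairs that name the arrays (24_2, 39_5) is not stated. Where nothing shows that 2 arrays came from separate litters, p-values measure the spread between these samples only. No first number of these pairs occurs at both ages. Age and whatever that number marks therefore cannot be told apart, and the age contrasts were fitted without a block for it.

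The values are log2 signals, normalized by RMA, so that a difference of 1 is a doubling. Signals of different probe sets are not comparable with each other, so levels are compared for 1 gene across arrays only. Marker lists were used to check for thalamic relay tissue. The lists in this paragraph do not test the labels of nucleus, age or condition. The mean log2 signal of 10 relay neuron genes was between 9.04 and 9.93 on every array, and Slc17a6, the vesicular glutamate transporter of relay neurons, was between 11.09 and 13.32. Genes of cortical and hippocampal excitatory neurons averaged 3.93 to 4.45. The 7 measured genes of GABAergic neurons averaged 4.87 to 5.32 on VB arrays apart from control array 39_5 at P0, which had 6.72. On dLGN arrays they averaged 5.27 to 5.81, apart from control array 39_5 at P0 with 6.39. Gad1, a gene of GABAergic neurons, ranged from 4.2 to 9.97 over the VB arrays. Arrays also differed in the spread of their signals, with an SD over all probe sets of 2.165 to 2.417. It was lowest in dLGN P0 embBE 39_3, dLGN P4 control 40_1, dLGN P0 embBE 35_3 and VB P0 control 35_1.

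The median log2 difference of the 95 genes lay between -0.06 and 0.06 in all 18 comparisons, and that of all genes between -0.09 and 0.04. The 8 group means of a gene spanned at least 1 log2 unit for 18 members, against 11% of all genes, and less than 0.585 (a 1.5-fold change) for 46 members, against 66.7% of all genes. Snap25 had the widest span among the members, 2.39, with its highest mean in VB P4 embBE (11.06) and its lowest in dLGN P0 embBE (8.67). Sv2b spanned 2.29 between the same pair of groups, and Cplx2 spanned 2.16 between dLGN P4 embBE (8.85) and dLGN P0 control (11.01). Signals were also correlated with the spread of the array. The correlation with the array SD over 24 arrays, which share nuclei, ages and conditions, was above 0.6 for 26 members (27.4%, against 23.8% of all genes) and below -0.6 for 27 (28.4%, against 34.4%). It was 0.88 for Snap25, 0.97 for Rab3c, 0.93 for Snap91 and 0.91 for Stxbp3, but 0.49 for Sv2b, 0.44 for Syt9 and -0.03 for Cplx2.

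**Figure D1:**
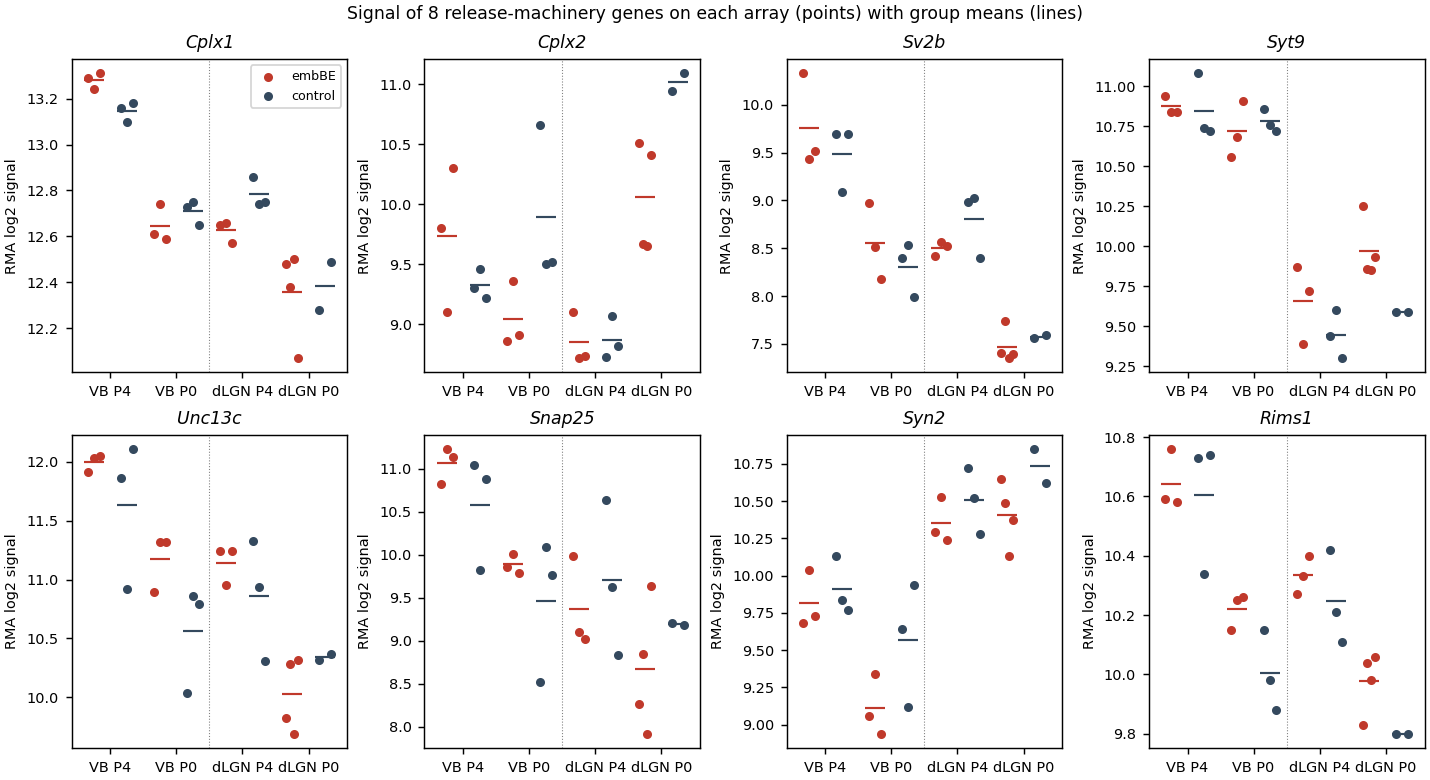
RMA log2 signal (y axis of each panel) of 8 release-machinery genes on each of the 24 arrays, by nucleus and age (x axis) and condition (colour); points are arrays and lines are group means. Syt9 separates VB from dLGN on every array, Sv2b is higher at P4 than at P0 in each nucleus, and Cplx2 is highest in dLGN P0 control arrays.

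The first question was how the release genes differ between P4 and P0, days in which thalamic axons settle in the cortex. The clearest members were Sv2b, Cplx1 and Cplx2. Sv2b was higher at P4 in both nuclei, Cplx1 was higher at P4 in VB, and Cplx2 was lower at P4 in dLGN. With limma's moderated test and a Benjamini-Hochberg adjusted p under 0.05 over all 18194 genes, 3 of 95 members passed in VB of embBE animals, all higher at P4 (2.69% of all genes were called higher, 0.731% lower). In VB controls 3 members passed, again all higher (2.32% of all genes were called higher, 1.45% lower). In dLGN of embBE animals 2 were higher (0.632% of all genes) and 2 were lower (0.39%). In dLGN controls 1 was higher (0.253%) and 1 was lower (0.308%). The counts rest on few arrays, and the share of all genes is given only for the fits that called more members. In embBE VB, 1 member was called without P4 array 24_4 or 40_3 or P0 array 39_3 or 39_4. In control VB, 0 were called without P4 array 24_2 or 40_1 or P0 array 39_5, 12 without P4 array 36_3 (9.72% of all genes in that fit) and 7 without P0 array 35_2 (4.87%). In embBE dLGN, 0 were called without any 1 of the P4 arrays, 1 without P0 array 35_3 and 2 without P0 array 39_2 or 39_3. In control dLGN, 0 were called without P0 array 35_1 or 39_5, which leaves 1 array at P0 and takes the spread from the other groups, and 1 without P4 array 24_2 or 36_3. Cplx1 in embBE VB was the one call that held in all 6 such fits.

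Sv2b, a glycoprotein of the vesicle membrane, passed in each nucleus and condition. In VB of embBE animals its signals were 10.33, 9.43 and 9.52 at P4, against 8.97, 8.51 and 8.18 at P0. In VB controls they were 9.69, 9.09 and 9.69 at P4, against 8.40, 8.53 and 7.99 at P0. No P4 array of VB overlapped a P0 array of the same condition. In dLGN the signals were 8.42, 8.56 and 8.52 at P4, against 7.40, 7.74, 7.35 and 7.39 at P0 in embBE animals, and 8.98, 9.03 and 8.40 at P4, against 7.56 and 7.59 at P0 in controls. The groups were again apart, with all dLGN values below those of VB at the same age. The differences were 1.20 (SE 0.27) and 1.18 (SE 0.27) in embBE and control VB, and 1.03 (SE 0.16) and 1.23 (SE 0.19) in embBE and control dLGN, with adjusted p between 0.0112 and 0.0289. The second probe set of Sv2b gave 0.96 and 0.95 in embBE and control VB and 0.84 in each condition in dLGN. With 1 array left out, the call held in 2 of 6 fits in each condition of VB, in 4 of 7 in embBE dLGN and in 1 of 5 in control dLGN. Its relative Sv2a differed by 0.35 and 0.06 in embBE and control VB and by 0.39 and -0.19 in embBE and control dLGN, with no adjusted p under 0.05.

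Cplx1 and Cplx2 encode the main brain complexins. Cplx1 signals in VB of embBE animals were 13.29, 13.24 and 13.31 at P4, against 12.61, 12.74 and 12.59 at P0. In VB controls they were 13.16, 13.10 and 13.18 at P4, against 12.73, 12.75 and 12.65 at P0. All P4 arrays stood above all P0 arrays of VB. Cplx1 was higher at P4 by 0.64 (SE 0.09, limma adjusted p = 0.0025) in embBE VB and by 0.44 (SE 0.09, limma adjusted p = 0.0192) in control VB. In dLGN the differences were 0.27 (SE 0.12) and 0.40 (SE 0.15) in embBE and control animals, with adjusted p of 0.428 and 0.363, and no P4 array overlapped a P0 array of its condition. A second Cplx1 probe set gave 0.92 and 0.72 in embBE and control VB and 0.64 and 0.53 in embBE and control dLGN, and the third lay between -0.16 and 0.11.

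Cplx2 ran the other way in dLGN. Its signals there were 9.10, 8.72 and 8.74 at P4, against 10.51, 9.67, 9.65 and 10.41 at P0 in embBE animals. In controls they were 8.73, 9.07 and 8.82 at P4, against 10.94 and 11.09 at P0. The ages did not overlap, and the P0 controls were the highest arrays of all. Cplx2 was lower at P4 by 2.31-fold in embBE dLGN (log2 difference -1.21, SE 0.22, limma adjusted p = 0.0224) and by 4.41-fold in control dLGN (-2.14, SE 0.26, limma adjusted p = 0.00904). In VB the differences were 0.69 (SE 0.32) in embBE animals and -0.56 (SE 0.32) in controls, and neither passed. The result rests on 1 of the 3 Cplx2 probe sets: the others gave -0.30 and -0.17 in embBE dLGN and -0.21 and -0.12 in control dLGN. The call held in 3 of 7 fits with 1 array left out in embBE dLGN and in 3 of 5 in control dLGN, where the fits that lost it are those with a single P0 array. In bulk tissue, fewer cells that express a gene and less RNA per cell cannot be told apart.

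The promoters of these genes are shown because Cplx1 was called higher at P4 in VB and Cplx2 was called lower at P4 in dLGN. Promoter sequence was available for 72 of the 95 members, in 94 listed starts. Shown are the 250 bases before a RefSeq start of each gene (build GRCm38.p6), 5′ to 3′, for Cplx1 at chr5:108550028-108550277 on the minus strand and for Cplx2 at chr13:54302306-54302555 on the plus strand. Capitals mark a GC box, searched as GGGCGG or its reverse complement CCGCCC. The other motif searched, the CRE half-site TGACG or its reverse complement, is in neither. A match of one motif can share its end base with a match of the other.
Cplx1: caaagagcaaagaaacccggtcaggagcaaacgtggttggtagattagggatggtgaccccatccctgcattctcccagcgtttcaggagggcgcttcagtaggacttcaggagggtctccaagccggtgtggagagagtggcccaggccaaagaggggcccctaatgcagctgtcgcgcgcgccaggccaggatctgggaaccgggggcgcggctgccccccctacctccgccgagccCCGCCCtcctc
Cplx2: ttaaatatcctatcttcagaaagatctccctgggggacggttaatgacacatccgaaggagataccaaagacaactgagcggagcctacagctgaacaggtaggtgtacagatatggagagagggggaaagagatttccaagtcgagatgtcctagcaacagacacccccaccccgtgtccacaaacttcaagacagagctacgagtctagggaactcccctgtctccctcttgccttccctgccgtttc
The Cplx1 stretch holds 1 GC box and is 64.8% G and C, whereas that of Cplx2 holds none and is 50.8% G and C. Over 32851 promoter stretches of the same length the median is 52.4% (quartiles 45.2% and 61.2%). A GC box was in 62.8% of the 94 member promoters and in 32.7% of all promoters, and the CRE half-site in 19.1% of member promoters and 17.8% of all. These are matches of letters and not binding sites.

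The other members that passed were active zone and SNARE genes. Rims1 encodes RIM1, which ties vesicles to calcium channels. In VB controls it was at 10.73, 10.34 and 10.74 at P4, against 10.15, 9.98 and 9.88 at P0, without overlap. It was higher at P4 by 0.60 there (SE 0.12, limma adjusted p = 0.0207). The differences were 0.42, 0.36 and 0.45 in embBE VB, embBE dLGN and control dLGN, and none of these passed. Its second probe set gave 0.45 and 0.36 in embBE and control VB, but 0.03 and -0.05 in embBE and control dLGN.

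Vamp1, a vesicle SNARE, was at 8.25, 8.40 and 8.28 at P4, against 7.80, 7.70 and 7.82 at P0 in embBE VB. It was higher at P4 by 0.53 (SE 0.11, limma adjusted p = 0.0181), a call lost without any 1 of the 6 arrays. In those fits the difference stayed at 0.49 to 0.56, and the adjusted p moved past the threshold. The differences were 0.36, 0.40 and 0.58 in control VB, embBE dLGN and control dLGN, and none of these passed. Its second probe set gave -0.29 and -0.30 in embBE and control VB. Unc13c, a Munc13 priming factor best known from the cerebellum, was at 11.24, 10.95 and 11.24 at P4, against 9.82, 10.28, 9.69 and 10.32 at P0 in embBE dLGN. It was higher at P4 by 1.12 (SE 0.23, limma adjusted p = 0.0405). The differences were 0.82 and 1.07 in embBE and control VB and 0.52 in control dLGN, and none of these 3 passed. Another Unc13c probe set gave 1.30 in embBE dLGN and the last gave 0.45.

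Stx3, a plasma membrane syntaxin, was at 8.23, 8.04 and 8.53 at P4, against 8.76, 9.15, 9.01 and 8.97 at P0 in embBE dLGN. It was lower at P4 by 1.62-fold (log2 difference -0.70, SE 0.14, limma adjusted p = 0.0419). In control dLGN the difference was about as large, -0.74 (SE 0.17), but its adjusted p was 0.106, and in embBE and control VB the differences were -0.04 and -0.25. A second Stx3 probe set of similar signal gave -0.61 and -0.66 in embBE and control dLGN and -0.43 and -0.55 in embBE and control VB.

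**Figure D2:**
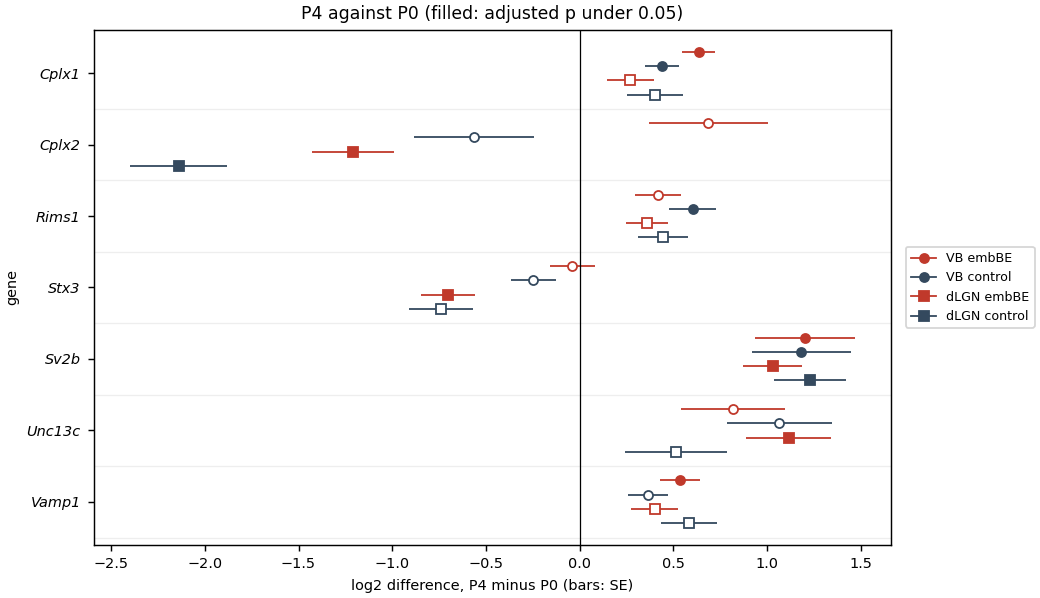
Log2 difference between P4 and P0 (x axis; bars are standard errors of the limma fit) for the 7 members called in at least 1 nucleus and condition (y axis). Filled symbols have an adjusted p under 0.05: Sv2b is filled in each nucleus and condition, and Cplx2 lies at -1.21 and -2.14 in embBE and control dLGN but on both sides of 0 in VB.

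The core SNAREs and the other calcium sensors did not pass. Snap25 was at 10.82, 11.23 and 11.14 at P4, against 9.86, 10.01 and 9.79 at P0 in embBE VB, a difference of 1.18 (SE 0.36) with an adjusted p of 0.11. Its control VB arrays were at 11.04, 9.82 and 10.88 at P4, against 8.52, 10.09 and 9.77 at P0, and the ages overlapped. The low values are those of P4 array 36_3 and P0 array 35_1, the pair of VB arrays with the narrowest signal spread (SD 2.262 and 2.223). Vamp2, the main vesicle SNARE, had group means between 9.62 and 10.14, Stx1a between 13.49 and 13.79, and Rab3a, the vesicle GTPase, between 12.99 and 13.20. The probe sets of Stx1a and Rab3a are of a kind that may also bind other transcripts. The calcium sensors Syt1 and Syt2 had group means from 12.37 to 13.07 and from 6.20 to 6.66. Syt4, a synaptotagmin of dense core vesicles, had differences of -0.57 and -0.56 (SE 0.17) in embBE and control VB, with adjusted p of 0.108 and 0.101, and a second probe set that gave 0.25 in VB controls. Other probe sets of Syt1 also disagreed, with 0.57 for the main one and -1.17 for the next in VB controls. Syp and Syn1, often used as markers of synapses, had differences of 0.48 and 0.56 in VB controls, with adjusted p of 0.281 and 0.0674. Bsn and Unc13a had narrow ranges of group means, 8.95 to 9.39 and 7.41 to 7.74. Doc2b, a calcium sensor, was at 5.93, 5.49 and 5.63 at P4, against 6.89 and 7.84 at P0 in control dLGN, a difference of -1.68 with an adjusted p of 0.301.

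By role, and apart from the single gene Snap91 (0.70), the largest median differences between P4 and P0 in VB controls were those of the 3 synapsins (0.34) and of the 9 vesicle membrane genes (0.22), and the 10 active zone genes had a median of 0.17. The 19 synaptotagmins and Doc2 genes had a median of -0.15. In dLGN controls the corresponding medians were -0.23, 0.10, -0.03 and 0.00. The complexins had a median of -0.10 in VB controls and 0.30 in dLGN controls, and the 23 SNARE genes -0.04 and 0.10 in the same order.

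**Figure D3:**
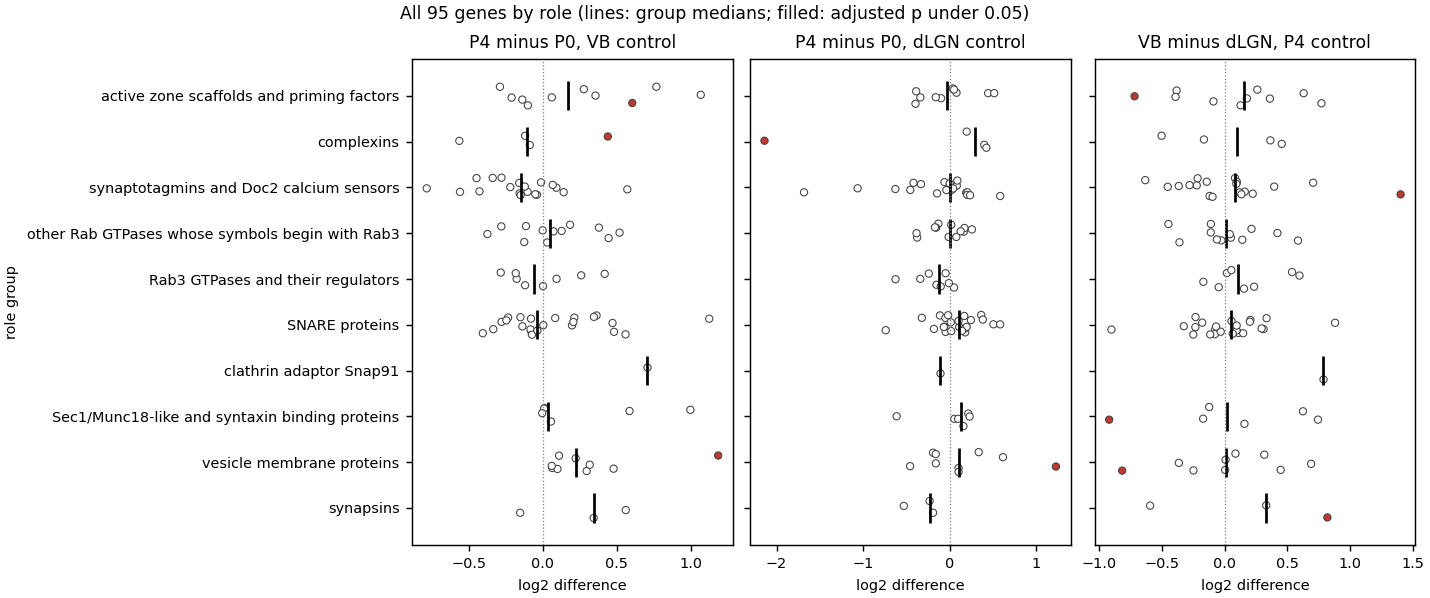
Log2 difference (x axes) of all 95 members by role (y axis) for P4 minus P0 in VB controls, P4 minus P0 in dLGN controls and VB minus dLGN in P4 controls; each point is a gene, lines are group medians and filled points have an adjusted p under 0.05. Snap91, a group of its own, lies at 0.70, -0.11 and 0.79, and 3, 2 and 5 single genes are filled, in the panels from left to right.

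Markers of another cell type also differed between the ages. Of 8 astrocyte genes, 4 were called higher at P4 in embBE VB (2.69% of all genes) and 4 in control VB (2.32%). In dLGN 2 were called higher in embBE animals (0.632%) and 1 in controls (0.253%). The mean signal of the 8 genes was 10.28 to 10.35 at P4, against 8.82 to 9.02 at P0 in embBE VB. In control VB it was 10.05 to 10.42 at P4, against 8.81 to 9.39 at P0. In dLGN it was 9.63 to 10.0 at P4, against 8.5 to 9.0 at P0 in embBE animals, and 9.81 to 10.09 at P4, against 9.07 to 9.15 at P0 in controls. The 6 genes of all neurons had medians between -0.23 and -0.05. The part of these shifts in the members' differences was not tested.

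Other genes of the vesicle cycle were counted for comparison. Of 68 listed, 61 were measured, and their median difference between the ages was 0.11 in VB of each condition. In VB controls 3 of them had an adjusted p under 0.05, all higher at P4 (2.32% of all genes were called higher). They were Nrxn3, a presynaptic adhesion protein (1.0, SE 0.20, limma adjusted p = 0.0155), Atp6v1g2, a subunit of the pump that acidifies vesicles (0.82, SE 0.20, limma adjusted p = 0.0451), and Sypl, a relative of synaptophysin (0.46, SE 0.12, limma adjusted p = 0.0446). The other groups were counted by the looser 1.5-fold threshold with an unadjusted p under 0.05, so their counts are not comparable with that of VB controls. By it, 3 were higher in embBE VB (3.82% of all genes) and 0 differed in embBE dLGN (3.48%). In control dLGN 1 was higher (1.49% of all genes) and 2 were lower (2.2%).

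The second question was what enucleation did to the release genes. No member passed an adjusted p under 0.05 in limma in either nucleus at either age, and the lowest adjusted p among them was 0.679 in VB and 0.851 in dLGN at P0. At an unadjusted p under 0.05 there were 2 members in VB (3.98% of all genes) and 3 in dLGN (1.3%) at P4, and 11 in VB (6.7%) and 4 in dLGN (2.38%) at P0. The study's own threshold, a change of at least 1.5-fold with an unadjusted p under 0.05, was used for the counts that follow. The p here is that of limma and not that of the methods' t-test. With the t-test fewer members met the threshold at P0 in each nucleus, as given in the last section. By it, none of the 95 members differed in VB at P4 (0.143% of all genes were called higher and 0.0165% lower) or in dLGN at P4 (0.066% and 0.132%). At P0, 4 members were higher in embBE VB (0.555% of all genes) and 3 were lower (0.17%), and 2 were lower in embBE dLGN (0.357%), with no higher one there (0.0879%). At P4, 2 members met it in VB without embBE 36_2 and 1 without control 24_2 or 40_1, and 1 met it in dLGN without control 40_1. The share of all genes that met it in those fits is not given, so these counts are not a result about the members.

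Cplx2 met the threshold in both nuclei at P0. Its signals in VB were 8.86, 9.36 and 8.91 in embBE animals, against 10.66, 9.50 and 9.52 in controls. In dLGN they were 10.51, 9.67, 9.65 and 10.41 in embBE animals, against 10.94 and 11.09 in controls. Every embBE array was below every control array of its nucleus, although the VB control 35_1, with 10.66, stood well above the other two. Cplx2 was lower in embBE animals by 1.8-fold in VB (log2 difference -0.85, SE 0.32, limma adjusted p = 0.679) and by 1.94-fold in dLGN (-0.95, SE 0.25, limma adjusted p = 0.851). Without control 35_1 the VB difference was -0.46 and no longer met the threshold, as it did not without embBE 35_3 (-0.75) or 39_4 (-0.78), whereas in dLGN the difference was -1.10 to -0.82 and met it whichever array was left out. The dLGN fits without 1 of the 2 controls compare a lone control and take its spread from the other groups. The other Cplx2 probe sets gave -0.33 and 0.06 in VB and 0.04 and -0.04 in dLGN. At P4 the differences were 0.40 (SE 0.32) in VB and -0.02 (SE 0.23) in dLGN.

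Of the synaptotagmin and Doc2 genes, Syt17 and Doc2a were lower and Syt14 was higher in embBE VB at P0 by this threshold. Syt17, a member of the family that lacks a membrane span, was at 6.99, 7.27 and 6.85 in embBE animals, against 7.91, 7.11 and 9.10 in controls. Doc2a, a sensor of spontaneous and asynchronous release, was at 9.35, 9.15 and 8.87 in embBE animals, against 10.48, 9.58 and 9.68 in controls. Syt14 was at 8.45, 8.50 and 8.57 in embBE animals, against 7.23, 8.59 and 7.78 in controls. The groups were apart for Doc2a and overlapped for Syt17 and Syt14. By limma, Syt17 differed by -1.0 (SE 0.37). Doc2a differed by -0.79 (SE 0.22), and by -0.51 without control 35_1, which missed the threshold. Syt14 differed by 0.64 (SE 0.29). The limma adjusted p was 0.679 for each of the 7 members called in VB at P0. The high Syt17 value is that of control 39_5, the array on which the GABAergic genes were high; of 7 such genes none was above 0 for embBE minus control in VB at P0 (median -0.39). Without that array the Syt17 difference was -0.47 and missed the threshold. The part of the GABAergic genes in it was not tested.

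The 3 remaining members higher in embBE VB at P0 act in docking and priming. Pclo was at 9.27, 8.97 and 9.41 in embBE animals, against 8.52, 8.73 and 8.55 in controls. Unc13c was at 10.89, 11.32 and 11.32 in embBE animals, against 10.04, 10.86 and 10.79 in controls. Stxbp3, a Munc18 protein, was at 6.19, 6.16 and 6.11 in embBE animals, against 4.83, 6.09 and 5.48 in controls. No embBE array overlapped a control array for any of the 3, but the margin was narrow for Unc13c and Stxbp3. By limma, Pclo differed by 0.62 (SE 0.20), Unc13c by 0.62 (SE 0.28) and Stxbp3 by 0.69 (SE 0.31). All 3 probe sets of Pclo were higher (0.62, 0.47 and 0.56), whereas the second probe set of Stxbp3 gave 0.03. Control 35_1, which is lowest for Unc13c, Stxbp3 and Syt14, is the VB array with the narrowest signal spread (SD 2.223, against 2.262 to 2.417 on the other VB arrays). Its actin signal at the 3′ end exceeded that at the 5′ end by 4.29 on the log2 scale, a common measure of RNA integrity and amplification, against 1.95 to 3.14 on the other VB arrays. Without it, 1 member met the threshold in VB at P0 in place of 7. Of the other arrays, leaving out embBE 39_4 also left 1, and embBE 35_3, embBE 39_3 or control 39_5 left 4. Leaving out control 35_2 gave 14 (5.82% of all genes in that fit, against 0.726% in the full fit). For the fits with lower counts the share is not given, so those counts show only that the calls rest on single arrays. With the first label number as a block, Doc2a, Pclo and Syt17 met the threshold in VB at P0, and Cplx2, Stxbp3, Syt14 and Unc13c did not.

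In dLGN at P0 the second member was Synpr, synaptoporin, a relative of synaptophysin. Its signals were 4.45, 4.37, 4.48 and 5.23 in embBE animals, against 5.22 and 5.80 in controls, so the groups overlapped narrowly. It was lower in embBE animals by 0.87 on the log2 scale (SE 0.34, limma adjusted p = 0.851). It missed the threshold without embBE 39_2 or 35_3 or control 39_5, and without embBE 39_4 the count of members in dLGN at P0 was 6 (3.19% of all genes in that fit) in place of 2, against 1 without embBE 35_3 or control 39_5. The higher control value, 5.80, is that of array 39_5, the dLGN array with the highest mean of the GABAergic genes (6.39). The part of these genes in the Synpr difference was not tested. In VB at P0 the Synpr difference was 0.18. The signal was low on all arrays, and without detection calls it was not tested whether it stands above background.

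**Figure D4:**
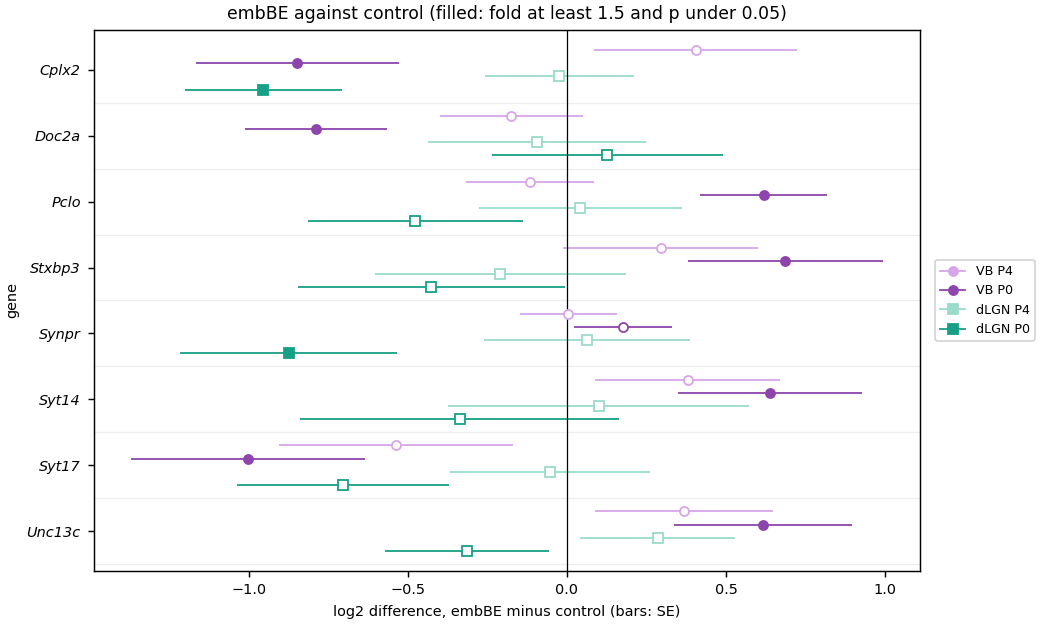
Log2 difference between embBE and control (x axis; bars are standard errors of the limma fit) for the 8 members (y axis) that met the 1.5-fold threshold in at least 1 nucleus and age. Filled symbols met it, and all of them are at P0; none of them has an adjusted p under 0.05.

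Of the 61 other vesicle cycle genes, 3 were higher in embBE VB at P0 by the same threshold (0.555% of all genes). They were Ppfia2, an active zone liprin (0.61, SE 0.26), Dnm3, a dynamin of endocytosis (0.64, SE 0.23), and Nrxn3 (0.62, SE 0.20). Ppfia4, another liprin, was lower (-0.60, SE 0.19). In dLGN, Cadps2, a priming factor of dense core vesicles, was lower in embBE animals at P0 (-0.88, SE 0.29), and Sncg, a synuclein, was lower at P4 (-0.61, SE 0.20). Of all genes, 0.17% were lower in VB at P0, 0.357% in dLGN at P0 and 0.132% in dLGN at P4. None of the vesicle cycle genes named here had an adjusted p under 0.05 in limma. The median over the 61 genes was 0.03 in VB and -0.07 in dLGN at P0.

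Whether the embBE effect differed between ages or nuclei, and the age change between nuclei, was tested directly. None of the 95 members passed an adjusted p under 0.05 in limma in the 6 such contrasts, with 2 to 7 members at an unadjusted p under 0.05 by limma in each, against 0.786% to 6.86% of all genes. Of all genes, 0% were called in the contrasts of the embBE effect, and 0.055% in embBE animals and 0.022% in controls for the age change in VB minus that in dLGN. The lowest adjusted p was 0.138, for Cplx2 in the difference of the age changes between the nuclei of embBE animals, which was 1.90 (SE 0.41). That members met the embBE threshold at P0 and not at P4 is therefore not shown to be a difference between the ages.

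The third question was how VB differs from dLGN. Syt9 was higher in VB in each condition and age. Syt9, a calcium sensor of the synaptotagmin family measured by 1 probe set, was at 10.94, 10.84 and 10.84 in VB, against 9.87, 9.39 and 9.72 in dLGN of embBE animals at P4. It was at 10.56, 10.68 and 10.91 in VB, against 10.25, 9.86, 9.85 and 9.93 in dLGN of embBE animals at P0. In controls it was at 11.08, 10.74 and 10.72 in VB, against 9.44, 9.60 and 9.30 in dLGN at P4, and at 10.86, 10.76 and 10.72 in VB, against 9.59 and 9.59 in dLGN at P0. No VB array overlapped a dLGN array. VB minus dLGN was 1.21 (SE 0.14) at P4 and 0.74 (SE 0.13) at P0 in embBE animals, and 1.40 (SE 0.14) at P4 and 1.19 (SE 0.16) at P0 in controls. The limma adjusted p was 1.84e-05 and 0.00165 in embBE animals at P4 and P0, and 5.71e-06 and 0.0002 in controls at P4 and P0. The call held in all 24 fits that left out 1 array and in every other alternative tried. Between ages and between conditions Syt9 did not pass the adjusted threshold in either nucleus.

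Because the Syt9 call held throughout, its promoter is also given, the 250 bases before its RefSeq start at chr7:107370540-107370789 on the plus strand (GRCm38.p6), with GC boxes in capitals.
Syt9: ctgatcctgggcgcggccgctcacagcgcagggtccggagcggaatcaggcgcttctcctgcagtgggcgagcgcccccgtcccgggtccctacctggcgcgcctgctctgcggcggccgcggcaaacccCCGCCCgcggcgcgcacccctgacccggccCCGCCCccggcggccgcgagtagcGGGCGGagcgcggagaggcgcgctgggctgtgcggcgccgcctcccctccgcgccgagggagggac
It holds 3 GC boxes and no CRE half-site, and is 80.4% G and C.

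By limma's adjusted p under 0.05, in embBE animals at P4 7 of 95 were higher in VB (4.33% of all genes) and 4 were lower (4.11%), and at P0 5 were higher (3.53%) and 4 were lower (3.92%). In controls at P4 2 were higher (1.73%) and 3 were lower (1.48%), and at P0 1 was higher (0.555%) and 2 were lower (1.01%). Whether VB and dLGN arrays with the same number pair came from the same pups is not stated, and the pair was used as a random block. The counts moved with single arrays, and the share of all genes is given only for the fits that called more members. In embBE animals at P0, 37 members were called without dLGN array 39_4, when 24.6% of all genes were, and 4 without any 1 of the VB arrays 35_3, 39_3 and 39_4. At P4, 7 were called without array 24_4 of either nucleus and 4 without array 36_2 or 40_3 of either nucleus. In controls, 8 were called at P4 without dLGN array 24_2 (4.51% of all genes), and 1 at P0 without dLGN array 35_1. Besides Syt9, the calls that held without any 1 array were those of Cplx1 and Sv2b in embBE animals at P4, Syn2 and Stx3 in embBE animals at P0, and Stxbp4 and Unc13b in controls at P4.

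Vesicle genes were found in each direction. Sv2b was higher in VB of embBE animals by 1.26 at P4 (SE 0.24, limma adjusted p = 0.00271) and by 1.08 at P0 (SE 0.22, limma adjusted p = 0.00588), with the signals given above. In controls the differences were 0.69 at P4 and 0.74 at P0 with adjusted p of 0.157 and 0.274, although the groups did not overlap. Its relative Sv2c was at 6.31, 5.53 and 6.18 in VB, against 7.23, 6.83 and 6.40 in dLGN of P4 controls, and was lower in VB by 0.82 (SE 0.19, limma adjusted p = 0.0201).

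The synapsins Syn2 and Syn3, which tether vesicles in the reserve pool, went in opposite directions. Syn2 was at 9.06, 9.34 and 8.94 in VB, against 10.65, 10.49, 10.13 and 10.37 in dLGN of embBE animals at P0. In controls at P0 it was at 9.64, 9.12 and 9.94 in VB, against 10.85 and 10.62 in dLGN. The nuclei did not overlap. Syn2 was lower in VB by 2.46-fold in embBE animals (log2 difference -1.30, SE 0.17, limma adjusted p = 0.000103) and by 2.25-fold in controls (-1.17, SE 0.21, limma adjusted p = 0.00369), and all 6 of its probe sets had this sign at P0. At P4 the differences were -0.54 in embBE animals and -0.59 in controls, and neither passed. Syn3 was at 10.11, 9.71 and 10.10 in VB, against 9.22, 9.24 and 9.0 in dLGN of P4 controls, and was higher in VB by 0.82 (SE 0.18, limma adjusted p = 0.0104). A second Syn3 probe set gave 0.79 and the third -0.23.

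Priming and syntaxin binding genes followed. Unc13b, which encodes Munc13-2, was at 8.95, 8.77 and 8.88 in VB, against 9.67, 9.56 and 9.52 in dLGN of P4 controls. It was lower in VB by 0.72 (SE 0.14, limma adjusted p = 0.005), a call that held without any 1 array, although the second, dim probe set gave 0.02. Unc13c went the other way in embBE animals at P0, by 1.15 (SE 0.26, limma adjusted p = 0.0116), and its remaining differences were 0.85 in embBE animals at P4, 0.77 in controls at P4 and 0.22 in controls at P0. Stxbp4, a syntaxin 4 binding protein known from glucose transporter traffic, was at 5.84, 5.71 and 5.98 in VB, against 6.84, 6.95 and 6.49 in dLGN of P4 controls, and at 5.67, 6.16 and 5.68 in VB, against 6.56 and 6.76 in dLGN of P0 controls. It was lower in VB by 0.92 at P4 (SE 0.18, limma adjusted p = 0.00383) and by 0.82 at P0 (SE 0.20, limma adjusted p = 0.0363). In embBE animals the differences were -0.27 at P4 and -0.25 at P0.

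Among complexins and plasma membrane SNAREs, Cplx1, Cplx2, Snap25 and Stx3 were called in embBE animals. Cplx1 was higher in VB of embBE animals at P4 by 0.65 (SE 0.10, limma adjusted p = 0.000562). The differences were 0.29, 0.36 and 0.33 in embBE animals at P0, controls at P4 and controls at P0, and none of these passed. Cplx2 was lower in VB of embBE animals at P0 by 1.01 (SE 0.28, limma adjusted p = 0.0345). At P0 the control difference was -1.13 (SE 0.34, limma adjusted p = 0.128), and at P4 the signs were positive, 0.88 in embBE animals and 0.45 in controls. Snap25 was at 10.82, 11.23 and 11.14 in VB, against 9.98, 9.10 and 9.02 in dLGN of embBE animals at P4, and was higher in VB by 1.70 (SE 0.46, limma adjusted p = 0.0295). Its second probe set gave 0.18, and the call held in 1 of 6 fits with 1 array left out. Stx3 was lower in VB of embBE animals at P0 by 0.61 (SE 0.13, limma adjusted p = 0.00633), but its second probe set gave 0.04.

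Further members were called in embBE animals alone. Apart from Syt4, Syt17 and Cplx3, they were named after their values were seen. Syt17 (-1.37), Syt4 (0.67) and Vamp7, a SNARE of late endosomes and neurite growth (0.67), passed at P0. Stxbp6, known as amisyn (1.14), Stx18 of the endoplasmic reticulum (0.46) and Rab3gap2, which turns off Rab3 (0.47), were higher in VB at P4, whereas Stx11, known from immune cells (-0.97), Rims2 (-0.96), Cplx3, known from the retina (-0.63), and Unc13d, known from blood cells (-0.52), were lower. With 1 array left out, the Stx11 call held in 0 of 6 fits, those of Stxbp6 and Unc13d in 1 of 6, those of Rims2, Cplx3, Stx18 and Rab3gap2 in 2 of 6, that of Vamp7 in 1 of 7 and those of Syt17 and Syt4 in 2 of 7. The Stx11 difference itself stayed at -1.02 to -0.93 in those fits. With the mean of its probe sets Rims2 differed by -0.21. That the calls fell in embBE animals and not in controls was tested as a difference of effects, and none of the 95 members passed. The signal SD of embBE arrays was 2.382 to 2.417 in VB, against 2.241 to 2.327 in dLGN at P4, and 2.351 to 2.374 in VB, against 2.165 to 2.369 in dLGN at P0. The 3′ minus 5′ actin signal of embBE arrays was 1.98 to 2.06 in VB, against 3.33 to 3.94 in dLGN at P4, and 2.25 to 2.55 in VB, against 3.06 to 4.27 in dLGN at P0. In controls it was 1.95 to 3.14 in VB, against 2.2 to 4.13 in dLGN at P4, and 2.2 to 4.29 in VB, against 3.25 to 4.05 in dLGN at P0. The 5 habenula genes averaged 6.64 to 6.94 on VB arrays and 6.96 to 7.31 on dLGN arrays, without overlap. The median VB minus dLGN difference of the astrocyte genes in embBE animals was 0.50 at P4 and 0.67 at P0. The part of these values in the members' differences was not tested.

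**Figure D5:**
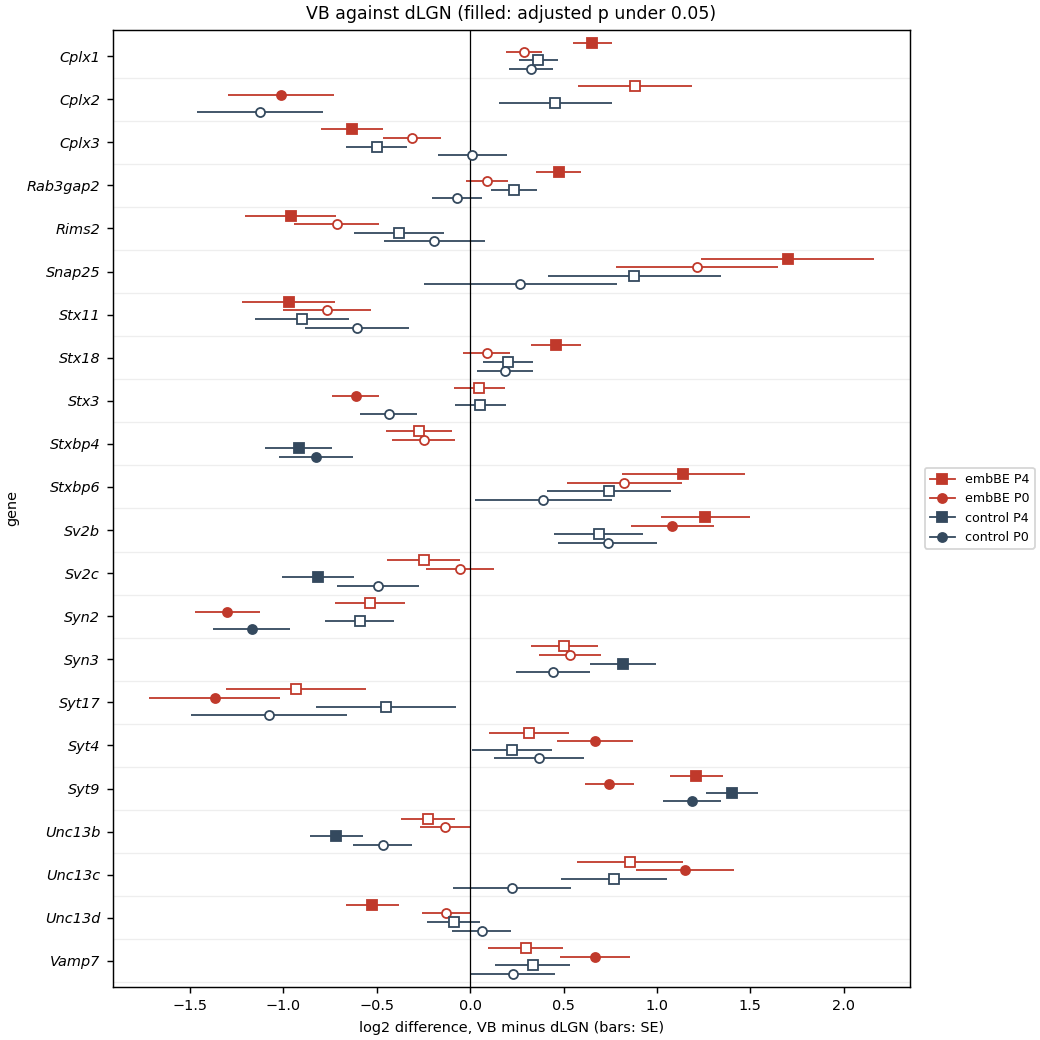
Log2 difference between VB and dLGN (x axis; bars are standard errors of the limma fit) for the 22 members (y axis) called in at least 1 condition and age. Filled symbols have an adjusted p under 0.05; Syt9 is filled in each condition and age, between 0.74 and 1.40, and Syn2 is filled at P0 in both conditions.

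Among the other vesicle cycle genes, Cadps2 was called lower in VB in each of the 4 comparisons. The differences were -1.30 (SE 0.30) at P4 and -1.20 (SE 0.28) at P0 in embBE animals, and -1.12 (SE 0.30) at P4 and -1.61 (SE 0.34) at P0 in controls. Rph3a, a Rab3 effector, was called lower in 3 of them (-0.86 and -0.81 in embBE animals at P4 and P0, and -1.21 in controls at P0). Amph, amphiphysin of clathrin endocytosis, was called higher in VB of embBE animals by 1.27 (SE 0.28) at P4 and 1.01 (SE 0.26) at P0. In all, 3 of the 61 were higher (4.33% of all genes) and 2 lower (4.11%) in embBE animals at P4. At P0 2 were higher (3.53%) and 4 lower (3.92%) in embBE animals. In controls 1 was lower at P4 (1.48%) and 2 at P0 (1.01%).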

How the data were processed

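Thalamic nuclei of newborn mice were profiled on 24 Affymetrix arrays. RNA of pooled tissue was amplified in repeated rounds, and the authors deposited 1 table of log2 signals normalized by RMA (its version is not stated). Quantile normalization within RMA sets the arrays to a common scale, so changes shared by most genes cannot be seen. No probe-level files or detection calls were used here, so precision is limited by the number of arrays. The table held 0 columns of other samples.

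Of 45101 probe sets, 932 pair with more than 1 symbol and 9211 have no gene listed, and neither kind was used. Symbols of 34754 of the remaining 34958 were updated through Entrez numbers to RefSeq (GRCm38.p6). Each of 18194 genes was represented by its probe set of highest mean over the 24 arrays, and 95 genes matched the symbol rule. The members and the gene lists were chosen with earlier results of these data known.

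Age and embBE contrasts were fitted with limma 3.58.1 (R 4.3.3) on the 12 arrays of a nucleus. Contrasts between nuclei were fitted on all 24 arrays with the number pair of the labels as a random block (consensus correlation -0.0196). P-values were adjusted by Benjamini-Hochberg over all genes, and the code was tested on simulated data. Age, nucleus and differences between effects were called at an adjusted p under 0.05. For embBE against control the study's threshold of at least 1.5-fold with an unadjusted p under 0.05 was applied to the p of limma. Named genes were the members called for embBE, the members with the largest called age changes and nucleus differences in controls, and a set of core release genes. Members called for age or nucleus in embBE animals alone were named after their values were seen. Alternatives were the mean of a gene's probe sets, a filter on dim genes, cyclic loess, median centring, a trended robust fit, other sets of arrays, the methods' t-test, the other call rule, replicate blocks, and each array left out. The array SD as a covariate and leaving out the 4 arrays of lowest SD were chosen after seeing the data. Promoters came from RefSeq (GRCm38.p6). Figures were drawn with matplotlib 3.10.9.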

Additional observations from a re-analysis of the deposited data

Results flagged for a closer look

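Of 41 named members tested in the 4 arrays of dLGN P0 embBE, 2 had 1 array far from the other 3 by Dixon's criterion, which chance gives in about 1 of 20 groups. Sv2b was at 7.74 on array 39_2, against 7.35 to 7.40 on the others. Synpr was at 5.23 on array 39_4, against 4.37 to 4.48 on the others.

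The other results are differences between effects that reached 1.5-fold and an unadjusted p under 0.05 in limma, none of which passed an adjusted p under 0.05. Their adjusted p was lowest for Cplx2 in the age change between nuclei of embBE animals (0.138). This rule was met by 1.05% to 5.26% of the members in a contrast, against 0.346% to 3.08% of all genes. For the embBE effect in VB minus dLGN at P0 the shares were 3.16% and 2.54%. For the age change in VB minus dLGN in controls they were 5.26% and 3.08%. The list is therefore not read as a result about the members. The age change of Cplx2 was more positive in VB than in dLGN, by 1.90 in embBE animals and by 1.58 in controls. In embBE animals the age changes of Stx3 and Syn2 differed between VB and dLGN by 0.66 and 0.76. In controls those of Pclo, Syn1 and Bsn differed by 1.16, 0.75 and 0.69, and that of Doc2g, a Doc2 family member, by -0.62. The embBE effect on Cplx2 was more positive at P4 than at P0, by 1.25 in VB and by 0.93 in dLGN, and that on Pclo in VB differed between the ages by -0.73. Between VB and dLGN, the embBE effect at P0 differed by 1.09 for Pclo, 1.05 for Synpr and 0.93 for Unc13c, and at P4 by 0.65 for Stxbp4.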

How the results depend on the processing

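Under the alternatives run, no result reversed; they held the mean of a gene's probe sets but no single second probe set. For single genes, 584 values under the alternatives kept their side of the threshold and 245 lost it. In the fits above that print it, the share of all genes called rose with the member count. At the study threshold it was 4.54% and 5.1% with age in embBE and control VB, and 3.69% in control dLGN. Between nuclei it was 11.5% and 11.7% in embBE animals at P4 and P0, and 4.7% and 3.57% in controls. For the other settings it is not given, and no result about the members is read from the counts.

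For P4 against P0, the count of members in embBE VB (3) was 8 with the mean of probe sets, 6 with all 24 arrays in the fit, 19 with only the groups compared, 7 with the methods' t-test after Benjamini-Hochberg, 6 at the study threshold, 13 with the array SD as a covariate, 6 without the 4 arrays of lowest SD, and 1 to 2 without 1 array. In control VB (3) it was 6, with cyclic loess 5, with only the groups compared 0, with the t-test 0, at the study threshold 9, with the SD covariate 16, and 0 to 12 without 1 array. In embBE dLGN (4) it was 2 with the mean of probe sets, centred arrays or only the groups compared, 0 with the t-test, 14 with the SD covariate and 0 to 3 without 1 array. In control dLGN (2) it was 5 with 24 arrays, 1 with only the groups compared, 0 with the t-test, 7 at the study threshold, 10 with the SD covariate and 0 to 2 without 1 array.

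For embBE against control in VB at P0 (7), the count was 3 with the mean of probe sets, 4 with the dim filter, loess or centred arrays, 1 with the t-test, 0 at an adjusted p under 0.05, 2 with the SD covariate (Cplx2 and Syt17), 1 without the 4 arrays (Syt17) and 1 to 14 without 1 array. In VB at P4 (0) it was 1 with loess or the SD covariate and 0 to 2 without 1 array. In dLGN at P0 (2) it was 1 with the mean of probe sets, the dim filter or without the 4 arrays, 0 with the t-test or an adjusted p, and 1 to 6 without 1 array. In dLGN at P4 (0) it was 1 without the 4 arrays and 0 to 1 without 1 array.

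For VB against dLGN in embBE animals at P4 (11), the count was 18 at the study threshold, 47 without the 4 arrays and 4 to 7 without 1 array. At P0 (9) it was 14 with the mean of probe sets or the dim filter, 22 at the study threshold and 4 to 37 without 1 array. In controls at P4 (5) it was 9 with the mean of probe sets, 12 at the study threshold, 15 with the SD covariate, 9 without the 4 arrays and 4 to 8 without 1 array. At P0 (3) it was 8 at the study threshold, 10 with the SD covariate, 8 without the 4 arrays and 1 to 3 without 1 array. The tests of differences between effects called 0 members throughout, including 0 to 0 without 1 array, except for the age change in VB minus dLGN, with 2 in embBE animals under the SD covariate or without the 4 arrays (Cplx2 and Stx3) and 2 in controls without the 4 arrays (Bsn and Cplx2). The cause of these shifts was not tested.

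The labels do not say what the numbers mark. The deviations of like-numbered arrays from their group means correlated at -0.55 to 0.72 between the nuclei. Those of embBE and control arrays of the same first number at P4 correlated at -0.20 to 0.76. The main age and embBE contrasts used no block, and those between nuclei used the number pair as a random block. With the first number as a replicate block, 4 members met the embBE threshold in VB at P0 and 3 in dLGN at P0, and as a random replicate block 5 were called with age in control VB. With the pair as a fixed replicate block, 7 members differed between nuclei in embBE animals at P4, 7 at P0, 5 in controls at P4 and 3 at P0. With no replicate block the counts at P0 were 11 in embBE animals and 3 in controls, and in controls at P4 6.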
